A study of Mus musculus with 6 samples.

Results

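The genes described here encode the subunits of voltage-gated sodium channels, voltage-gated calcium channels, HCN (hyperpolarization-activated, cyclic nucleotide-gated) channels and the sodium leak channel in mouse hypothalamus. They were chosen by symbol: the Scn alpha genes without Scn7a, the Scn beta genes, the Cacna1, Cacna2d and Cacnb genes, the Hcn genes and Nalcn, with at least 10 counts summed over the libraries. The rule found 36 genes among the 50559 of the table. RNA from the hypothalamus was sequenced in 3 libraries labelled SRC1 KO, from mice with the gene for SRC-1 deleted, and in 3 libraries labelled WT, from wild-type mice. SRC-1, steroid receptor coactivator 1, is encoded by Ncoa1 and binds ligand-activated nuclear receptors. Nothing in the labels gives the deletion allele, the strain, the age or the number of mice behind a library. The p-values therefore describe spread between samples that may differ only technically.

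Voltage-gated channels set how a neuron fires. Sodium channel alpha subunits form the pore that carries the upstroke of the action potential, and small beta subunits bind them and tune their gating and anchoring. Calcium channel alpha1 subunits form pores of the L, P/Q, N, R or T type, which feed calcium to signalling, transmitter release or burst firing, while alpha2delta and beta subunits bring them to the membrane. HCN channels open when the membrane is hyperpolarized and help pace rhythmic neurons, and Nalcn carries a background sodium leak that holds the resting potential up.

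The libraries held 39341074 to 46755553 counts in SRC1 KO and 36613507 to 42191925 in WT, and 20257 genes had enough counts for the edgeR quasi-likelihood test. Ncoa1 (chromosome 12, 4297362 to 4569452, minus strand, GRCm39) had 38.8 ± 1.54 CPM in SRC1 KO against 126.5 ± 3.94 CPM in WT (SD, n = 3 each). CPM values here are read counts scaled to a common library size after TMM adjustment (trimmed mean of M-values). The log2 fold change of Ncoa1, like all others SRC1 KO over WT, was -1.71 ± 0.07 (SE, Benjamini-Hochberg adjusted p = 1.87e-06). The hypothalamic peptide genes Hcrt and Pmch and the regional transcription factor Nkx2-1 were read in every library, and each was lowest in WT 1. Hcrt had 175, 177 and 146 CPM in SRC1 KO and 66.6, 142 and 152 CPM in WT. Pmch had 250, 408 and 283 CPM in SRC1 KO and 147, 271 and 262 CPM in WT. Nkx2-1 had 23.2, 31.9 and 29.8 CPM in SRC1 KO and 20.9, 35.1 and 31.8 CPM in WT. Gh, the pituitary growth hormone gene, had 280, 7 and 1 counts in SRC1 KO libraries 1 to 3 against 477, 0 and 0 counts in WT libraries 1 to 3, so the library numbered 1 stood apart in each group. The calls of Hcn2, Rrad, Gem and the oligodendrocyte and ependymal markers are also given without those 2 libraries, an alternative chosen after seeing the data. With fewer libraries, that fit called 29 of 20431 genes tested, against 169 of 20257 with every library kept. A call lost there is therefore shared with most called genes. Mitochondrial genes took 4.22% to 4.43% of counts in SRC1 KO and 3.61% to 4.06% in WT.

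Hcn2 was the only one of the 34 tested channel genes that passed an adjusted p of 0.05, and it was higher in SRC1 KO. That is 2.94% of those tested, where 0.834% of all genes passed the same test in either direction and 0.242% passed as higher. At an unadjusted p under 0.05 there were 11 channel genes, or 32.4% against 13.0% of all genes. Of these, 8 were higher and 3 lower, where 5.75% of all genes were higher and 7.21% lower. The 3 SRC1 KO libraries lay wholly above the 3 WT libraries for 7 channel genes and wholly below them for 4, again 32.4%, against 17.6% of all genes (8.58% above and 9.03% below). Other fits called 5 channel genes without an expression filter (2.65% of all genes), 4 with DESeq2 (4.05%), 2 with limma-voom and sample quality weights (1.98%), 0 with limma-voom alone (0.508%) and 0 with a replicate block (0.765%). The median log2 fold change was 0.04 over the tested channel genes and 0.0042 over all genes tested, and 21 channel genes had a positive and 13 a negative value. Scn4a and Scn10a, pore subunits known from skeletal muscle and sensory neurons, had too few counts to be tested. Scn4a had 5, 3 and 5 counts in SRC1 KO and 4, 10 and 4 counts in WT. Scn10a had 4, 5 and 13 counts in SRC1 KO and 11, 4 and 8 counts in WT. In whole tissue, fewer cells of a type and less RNA per cell cannot be told apart.

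**Figure D1:**
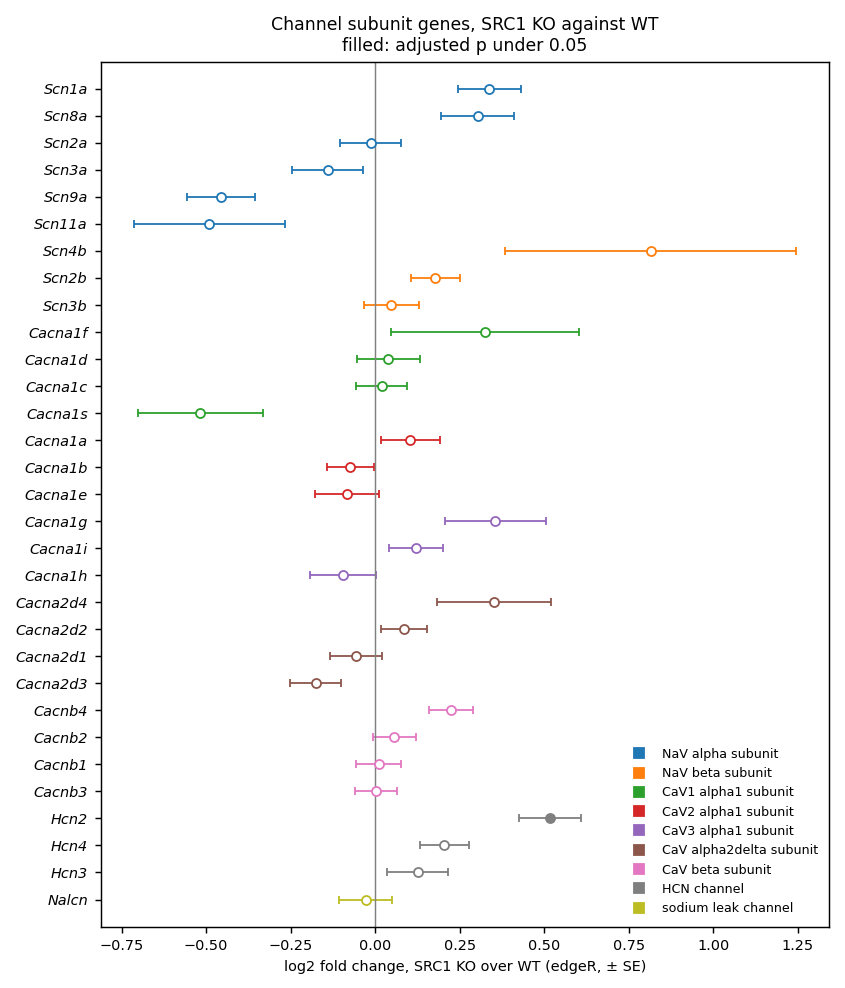
Log2 fold change of SRC1 KO over WT (horizontal axis) for 31 tested channel genes, grouped by role with colours, with bars of ± 1 SE from edgeR. The filled point, Hcn2 at 0.52, is the only gene past an adjusted p of 0.05, and the wide bar of Scn4b shows its spread between libraries.

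The HCN genes held the only call. Hcn2, a channel subunit that responds strongly to cyclic AMP, lies on chromosome 10 (79552468 to 79571942, plus strand, GRCm39). It had 6269, 5037 and 5496 counts in SRC1 KO and 3462, 3737 and 3903 counts in WT. These are 149, 127 and 120 CPM in SRC1 KO and 84.9, 98.7 and 93.9 CPM in WT. All 3 SRC1 KO libraries were above all 3 WT libraries, with SRC1 KO 1 the highest of the 6 and WT 1 the lowest. Hcn2 averaged 132 ± 15.2 CPM in SRC1 KO and 92.5 ± 7.02 CPM in WT (SD, n = 3 each). It rose by a log2 fold change of 0.52 ± 0.09 (SE, 95% interval 0.31 to 0.72, edgeR adjusted p = 0.0381), or 1.43-fold. Without the library numbered 1 in each group the log2 fold change was 0.35 with an adjusted p of 0.369, so the call was lost. Leaving out SRC1 KO 1 alone gave an adjusted p of 0.122 and leaving out WT 1 alone gave 0.116. Without WT 2 and without WT 3 the adjusted p was 0.0522 and 0.0673, while the call remained without SRC1 KO 2 (0.035) and without SRC1 KO 3 (0.0293). With every library kept, the call was also lost with library totals alone (adjusted p = 0.0798), a stricter filter that asked 3 libraries to reach 1 CPM (0.053), limma-voom (0.0569) or a replicate block (0.105).

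The stretch before the start of Hcn2 is printed because Hcn2 is the gene that passed, and that of Scn9a because it had the lowest p among the channel genes with lower values in SRC1 KO. Both are the 250 bases upstream of the RefSeq gene start, 5′ to 3′ on the gene's strand, in build GRCm38.p6: Hcn2 at chr10:79716384-79716633 on the plus strand and Scn9a at chr2:66634963-66635212 on the minus strand. Capitals mark TGACCT, which reads AGGTCA on the opposite strand, the core hexamer that many nuclear receptors bind.
Hcn2: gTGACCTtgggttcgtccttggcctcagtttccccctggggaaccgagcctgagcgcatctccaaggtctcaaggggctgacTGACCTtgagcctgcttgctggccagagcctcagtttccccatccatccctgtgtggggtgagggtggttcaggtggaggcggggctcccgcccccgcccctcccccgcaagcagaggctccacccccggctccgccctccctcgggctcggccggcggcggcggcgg
Scn9a: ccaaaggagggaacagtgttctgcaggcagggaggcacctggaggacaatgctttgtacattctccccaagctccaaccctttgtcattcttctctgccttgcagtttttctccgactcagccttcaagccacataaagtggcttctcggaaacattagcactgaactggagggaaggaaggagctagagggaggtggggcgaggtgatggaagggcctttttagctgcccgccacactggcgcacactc
The motif AGGTCA was searched on both strands, after the Hcn2 sequence had been read. At least 1 match was in 14% of all 32851 RefSeq windows of this length and 2 or more were in 1.36%. Of the channel genes, 26 had a window, 36 windows in all. Windows of Hcn2, Scn8a and Cacna1f held a match, and Hcn2 held 2, beginning 249 and 168 bases before the start. The longer CAAGGTCA, of which every match is also a match of AGGTCA, was in 1.33% of all windows. The Hcn2 window, with 2 matches, was 1 of 4 windows with that many. Both Hcn2 matches of AGGTCA carry the added bases, and the Hcn2 sequence had been read before the search. These counts are therefore no test of Hcn2, and binding of a nuclear receptor there was not tested. The Scn9a window held no match to either motif, which says only that these letters are not in this window.

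Hcn4 and Hcn3 did not pass the test. Hcn4, the subunit best known from the pacemaker of the heart, had 25.8, 25.3 and 24.1 CPM in SRC1 KO and 21.1, 23.0 and 21.2 CPM in WT. Its groups did not overlap, and its log2 fold change was 0.20 ± 0.07 (SE, adjusted p = 0.246). Hcn3 had 45.9, 46.9 and 37.5 CPM in SRC1 KO and 41.3, 38.9 and 39.2 CPM in WT. Here the lowest library of all was SRC1 KO 3, the groups overlapped, and the log2 fold change was 0.13 ± 0.09 (SE, adjusted p = 0.643).

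**Figure D2:**
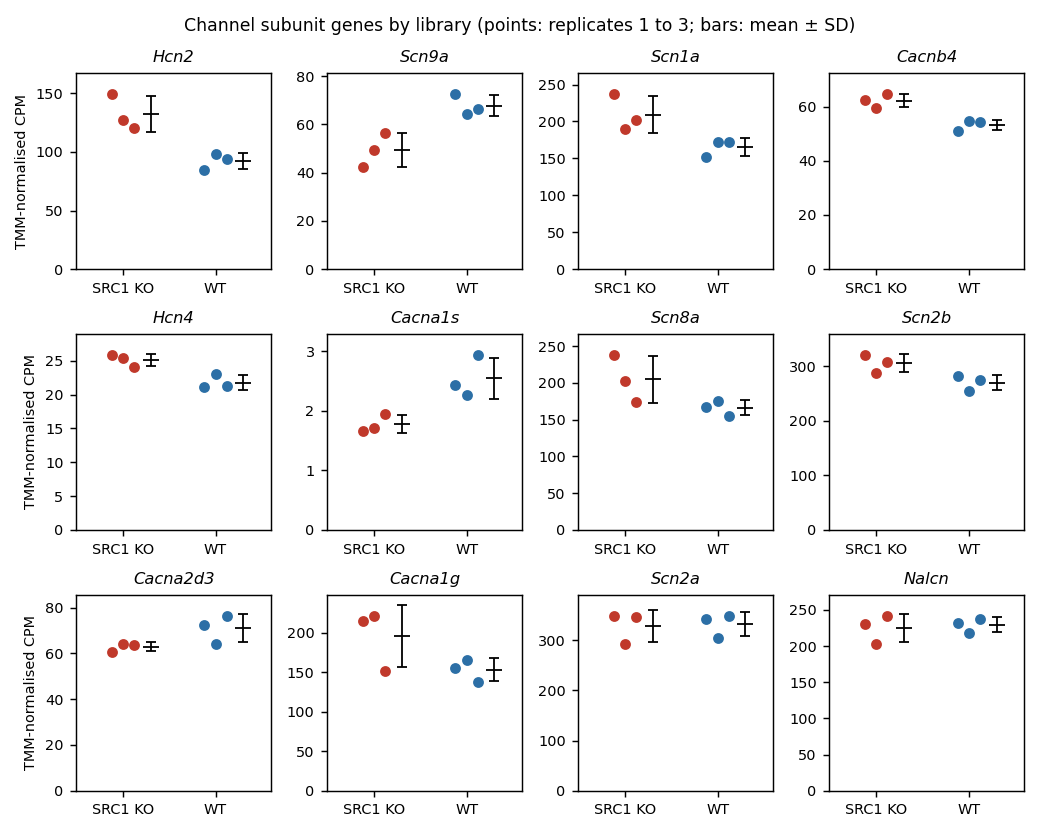
TMM-normalised CPM (vertical axes from 0) of 12 channel genes in each library, with points for replicates 1 to 3 of SRC1 KO (red) and WT (blue) and bars for the mean ± SD. Hcn2 sits at 120 to 149 CPM in SRC1 KO and at 84.9 to 98.7 in WT, Scn9a shows the opposite order, and Scn2a and Nalcn overlap.

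Among the marker lists read beside these genes, oligodendrocyte genes moved with the same libraries. The 12 oligodendrocyte markers, which include the myelin genes Mbp and Mog, had a median log2 fold change of 0.74, with 6 called higher and 0 lower in the edgeR fit. Without the library numbered 1 in each group the median was 0.51 and 0 were called. Their summed level was 9026, 7673 and 6748 CPM in SRC1 KO and 4154, 5310 and 5125 CPM in WT, with no marker at 0 in any library. The 6 libraries stood in the same order for this sum, for Hcn2 and for Hcn4. That order was held by 2 of 34 tested channel genes, 5.88%, and by 0.835% of the 20245 tested genes outside the list, and it was noticed after the values were seen. As a percentage of the oligodendrocyte sum, Hcn2 was 1.65%, 1.65% and 1.78% in SRC1 KO and 2.04%, 1.86% and 1.83% in WT. Hcn2 was thus higher in SRC1 KO on the CPM scale and lower in SRC1 KO as a share of that sum. Hcn4 was 0.325% ± 0.0360 of that sum in SRC1 KO and 0.452% ± 0.0496 in WT (SD, n = 3 each). What part the oligodendrocyte genes have in the Hcn2 difference was not tested.

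**Figure D3:**
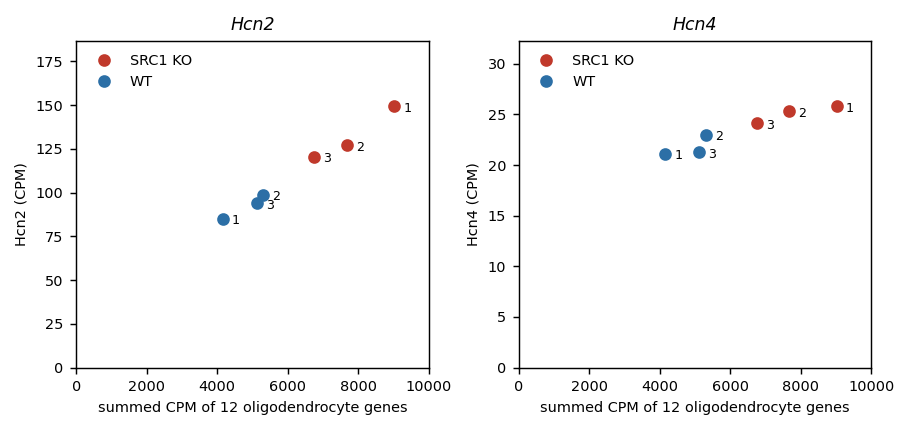
CPM of Hcn2 (left) and Hcn4 (right), vertical axes from 0, against the summed CPM of 12 oligodendrocyte genes (horizontal axis), 1 point per library, SRC1 KO in red and WT in blue with the replicate number. The 3 SRC1 KO points lie at 6748 to 9026 CPM of the sum and the 3 WT points at 4154 to 5310, in the same order as Hcn2.

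The other marker lists give the setting of all channel values. The 15 neuron markers had 0 calls and summed to 7711 to 8508 CPM in SRC1 KO and 7229 to 7909 CPM in WT. Their median log2 fold change was 0.12, with 12 positive, and the sums overlapped between groups. The 10 ependymal and tanycyte markers, with 0 called higher and 6 lower, summed to 73.7 to 95.6 CPM in SRC1 KO and 205 to 215 CPM in WT. Without the library numbered 1 in each group 4 of them were called lower. The sums of the astrocyte, pituitary, meningeal fibroblast, choroid plexus and striatum lists were also lower in every SRC1 KO library than in any WT library, with 0 to 1 call each. The astrocyte sum was 2633 to 2870 CPM in SRC1 KO and 2914 to 2990 CPM in WT, and the striatum sum was 286 to 299 CPM in SRC1 KO and 315 to 346 CPM in WT. The pituitary sum was 307 to 336 CPM in SRC1 KO and 337 to 379 CPM in WT, barely apart. Its 8 tested genes had a median log2 fold change of -1.20, with 2 positive, so the sum does not describe each gene of that list. Of 8 tested genes in each of the others, 2 were positive for astrocyte, 2 for striatum, 3 for choroid plexus and 0 for meningeal fibroblast. The meningeal sum was 58.3 to 64.1 CPM in SRC1 KO and 67.6 to 269 CPM in WT, and the choroid plexus sum was 28.8 to 37.5 CPM in SRC1 KO and 48.7 to 50.2 CPM in WT. Oligodendrocyte precursor, vascular, thalamus and pallium sums overlapped. Of the 7 tested pallium genes 1 was called higher, at a median log2 fold change of 0.31, and the other overlapping lists had 0 calls. No marker was at 0 in all libraries, and Gh, Prl, Fshb, Pou1f1 and Tagln were at 0 in some. What part these lists have in the channel values was not tested.

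None of the 7 tested sodium channel alpha genes passed, and their values were split by gene. Scn1a, the pore subunit associated with GABAergic interneurons, had 237, 190 and 202 CPM in SRC1 KO and 152, 172 and 173 CPM in WT. The groups did not overlap, and the log2 fold change was 0.34 ± 0.09 (SE, adjusted p = 0.134). DESeq2 gave Scn1a an adjusted p of 0.0151, while without the library numbered 1 in each group its log2 fold change in edgeR was 0.17 and did not pass. Scn9a, known above all from pain-sensing neurons, had 42.5, 49.3 and 56.3 CPM in SRC1 KO and 72.5, 64.4 and 66.3 CPM in WT. Every SRC1 KO library was below every WT library, and the log2 fold change was -0.46 ± 0.10 (SE, 95% interval -0.68 to -0.23, adjusted p = 0.0687). DESeq2 gave Scn9a an adjusted p of 0.00183 with a log2 fold change of -0.45, and edgeR without SRC1 KO 3 an adjusted p of 0.0292. Without the library numbered 1 in each group the value was -0.31 with an adjusted p of 0.529. Scn8a, the main pore subunit of nodes of Ranvier, had 238, 203 and 174 CPM in SRC1 KO and 168, 176 and 156 CPM in WT. Its groups overlapped through SRC1 KO 3, and the log2 fold change was 0.30 ± 0.11 (SE, adjusted p = 0.255). The log2 ratio of Scn8a to Scn2a counts also overlapped, at -0.55, -0.52 and -0.99 in SRC1 KO and -1.03, -0.79 and -1.16 in WT.

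Scn2a, a pore subunit of excitatory neurons and the alpha gene with the highest level per length, had 348, 291 and 346 CPM in SRC1 KO and 342, 304 and 348 CPM in WT. The groups covered nearly the same range, with a log2 fold change of -0.01 ± 0.09 (SE, 95% interval -0.21 to 0.19, adjusted p = 0.972). Scn3a, strongest in the embryonic brain, averaged 109 ± 13.2 CPM in SRC1 KO and 120 ± 12.9 CPM in WT (SD, n = 3 each), at a log2 fold change of -0.14 ± 0.10 (SE, adjusted p = 0.664). Scn11a, a sensory neuron gene, had 1.02, 1.26 and 1.42 CPM in SRC1 KO and 1.94, 1.43 and 1.85 CPM in WT. Its groups came within a few counts of overlapping, and its log2 fold change was -0.49 ± 0.22 (SE, adjusted p = 0.39).

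Scn3a, Scn2a, Scn1a and Scn9a lie in a row on chromosome 2. Scn1a (66101125 to 66271181) and Scn9a (66310424 to 66465456), both on the minus strand of GRCm39, are 39.2 kb apart. The log2 ratio of Scn1a to Scn9a counts was 2.48, 1.94 and 1.84 in SRC1 KO and 1.07, 1.42 and 1.38 in WT, higher in each SRC1 KO library by a mean difference of 0.80. The log2 ratio of Scn1a to Scn2a counts was -0.55, -0.62 and -0.78 in SRC1 KO and -1.17, -0.82 and -1.01 in WT, a mean difference of 0.35. The log2 ratio of Scn1a to Scn3a counts was 1.17, 0.96 and 0.71 in SRC1 KO and 0.29, 0.71 and 0.40 in WT, where SRC1 KO 3 and WT 2 overlapped narrowly. The first 2 ratios were higher in every SRC1 KO library than in any WT library. A ratio within a library does not depend on how libraries are scaled. The ratio of Scn1a to Scn9a had to be apart, since Scn1a was above and Scn9a below in every SRC1 KO library. It therefore adds nothing to the values of these genes, neither of which passed in the main edgeR fit.

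Of the sodium channel beta genes, Scn2b, Scn4b and Scn3b had positive log2 fold changes and did not pass, and Scn3b was at -0.023 without the library numbered 1 in each group. Scn2b, whose protein is disulfide-bonded to the pore subunit, had 321, 288 and 308 CPM in SRC1 KO and 281, 254 and 275 CPM in WT. The lowest SRC1 KO library lay just above the highest WT library, and the log2 fold change was 0.18 ± 0.07 (SE, adjusted p = 0.33). Scn4b, linked to resurgent sodium current, had 41.1, 31.1 and 22.7 CPM in SRC1 KO and 9.56, 24.2 and 20.1 CPM in WT. Its groups overlapped, and its log2 fold change of 0.82 came with an SE of 0.43 and an adjusted p of 0.552. It was 0.51 without WT 1 and 0.27 without the library numbered 1 in each group. The log2 ratio of Scn4b to Scn2b counts overlapped too, at -2.96, -3.21 and -3.77 in SRC1 KO and -4.88, -3.39 and -3.77 in WT. The coefficient of variation of Scn4b was 29.2% in SRC1 KO and 42.1% in WT, against medians over the channel genes of 8.59% in SRC1 KO and 6.81% in WT. Scn3b, a beta gene whose protein binds the pore without a disulfide bond, averaged 158 ± 6.38 CPM in SRC1 KO and 153 ± 15.6 CPM in WT (SD, n = 3 each), at a log2 fold change of 0.05 ± 0.08 (SE, adjusted p = 0.883).

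The calcium channel pore genes had 0 calls among the 10 tested, with unadjusted p under 0.05 for Cacna1s and Cacna1g. Of the L-type genes, Cacna1c, the main one of brain and heart, had 88.1, 84.9 and 79.5 CPM in SRC1 KO and 90.4, 78.6 and 80.2 CPM in WT. Its groups overlapped, with a log2 fold change of 0.02 ± 0.07 (SE, 95% interval -0.15 to 0.19, adjusted p = 0.951). Cacna1d, an L-type channel that opens at lower voltages, averaged 79.2 ± 6.81 CPM in SRC1 KO and 77.0 ± 8.39 CPM in WT (SD, n = 3 each), at a log2 fold change of 0.04 ± 0.09 (SE, adjusted p = 0.917). Cacna1s, the voltage sensor of skeletal muscle, had 1.67, 1.71 and 1.95 CPM in SRC1 KO and 2.43, 2.27 and 2.94 CPM in WT. The groups did not overlap at these low levels, and the log2 fold change was -0.52 ± 0.19 (SE, adjusted p = 0.255). Cacna1f, the L-type channel of photoreceptors, had 0.946 ± 0.231 CPM in SRC1 KO and 0.753 ± 0.148 CPM in WT (SD, n = 3 each), at a log2 fold change of 0.33 ± 0.28 (SE, adjusted p = 0.722).

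The CaV2 genes, whose channels feed transmitter release, were close between the groups. Cacna1b, the N-type pore, had 208, 207 and 185 CPM in SRC1 KO and 215, 210 and 206 CPM in WT. SRC1 KO 3 was the lowest library and the groups overlapped, with a log2 fold change of -0.07 ± 0.07 (SE, 95% interval -0.23 to 0.08, adjusted p = 0.755). Cacna1a, the P/Q-type pore, averaged 112 ± 13.6 CPM in SRC1 KO and 104 ± 2.20 CPM in WT (SD, n = 3 each), at a log2 fold change of 0.10 ± 0.09 (SE, adjusted p = 0.712). Cacna1e, the R-type pore, averaged 274 ± 7.81 CPM in SRC1 KO and 291 ± 40.1 CPM in WT (SD, n = 3 each), at a log2 fold change of -0.08 ± 0.10 (SE, adjusted p = 0.807). For both genes the groups overlapped. Of the T-type genes, which support burst firing, Cacna1g had 215, 221 and 151 CPM in SRC1 KO and 156, 166 and 138 CPM in WT. SRC1 KO 1 and 2 were above every WT library and SRC1 KO 3 was not, and the log2 fold change was 0.35 ± 0.15 (SE, adjusted p = 0.375). Without SRC1 KO 3 it was 0.51 with an adjusted p of 0.0343, which passes. Cacna1h averaged 68.1 ± 9.51 CPM in SRC1 KO and 72.7 ± 2.86 CPM in WT (SD, n = 3 each), at a log2 fold change of -0.09 ± 0.10 (SE, adjusted p = 0.781). Cacna1i averaged 92.9 ± 7.98 CPM in SRC1 KO and 85.4 ± 5.49 CPM in WT (SD, n = 3 each), at a log2 fold change of 0.12 ± 0.08 (SE, adjusted p = 0.608). Cacna1h and Cacna1i overlapped between groups. The log2 ratio of Cacna1g to Cacna1h counts was 1.58, 1.56 and 1.40 in SRC1 KO and 1.06, 1.26 and 0.90 in WT, higher in each SRC1 KO library, with a mean difference of 0.44.

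The 8 auxiliary calcium channel genes had 0 calls. Cacna2d2, an alpha2delta gene whose protein binds gabapentin, had 204, 185 and 186 CPM in SRC1 KO and 186, 175 and 181 CPM in WT. The groups overlapped at 185 to 186 CPM, and the log2 fold change was 0.09 ± 0.07 (SE, adjusted p = 0.693). Cacna2d3, an alpha2delta gene whose protein does not bind that drug, had 60.6, 64.1 and 63.9 CPM in SRC1 KO and 72.3, 64.3 and 76.4 CPM in WT. SRC1 KO 2 and WT 2 nearly met, and the log2 fold change was -0.18 ± 0.08 (SE, adjusted p = 0.36). Cacna2d1, the other gabapentin target, averaged 259 ± 17.1 CPM in SRC1 KO and 270 ± 16.3 CPM in WT (SD, n = 3 each), at a log2 fold change of -0.06 ± 0.08 (SE, adjusted p = 0.841). Cacna2d4, known from the retina, had a log2 fold change of 0.35 ± 0.17 (SE, adjusted p = 0.427) with groups apart at 3.53 ± 0.400 CPM in SRC1 KO and 2.76 ± 0.343 CPM in WT (SD, n = 3 each).

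Cacnb3, the beta gene with the highest level per length, had 104, 99.7 and 102 CPM in SRC1 KO and 103, 97.4 and 105 CPM in WT. The ranges nearly coincided, with a log2 fold change of 0.0032 ± 0.06 (SE, 95% interval -0.13 to 0.14, adjusted p = 0.992). Cacnb4, the gene mutated in the lethargic mouse, had 62.5, 59.6 and 64.6 CPM in SRC1 KO and 51.1, 54.6 and 54.2 CPM in WT. The groups did not overlap, and the log2 fold change was 0.23 ± 0.07 (SE, adjusted p = 0.156). Exons of other genes cover 28.4% of the Cacnb4 exon bases, and read pairs that fell on both genes were not counted. Cacnb1, which also serves the channel of skeletal muscle, averaged 94.3 ± 4.59 CPM in SRC1 KO and 93.7 ± 4.64 CPM in WT (SD, n = 3 each), at a log2 fold change of 0.01 ± 0.07 (SE, adjusted p = 0.972). Cacnb2, the main beta gene of the heart, averaged 73.1 ± 1.09 CPM in SRC1 KO and 70.3 ± 3.22 CPM in WT (SD, n = 3 each), at a log2 fold change of 0.06 ± 0.06 (SE, adjusted p = 0.801). Both overlapped between groups, and exons of other genes cover 10.8% of Cacnb1 and 16.5% of Cacnb2. Nalcn, the leak channel, had 230, 203 and 242 CPM in SRC1 KO and 232, 218 and 238 CPM in WT. SRC1 KO held both the lowest and the highest library, and the log2 fold change was -0.03 ± 0.08 (SE, 95% interval -0.20 to 0.15, adjusted p = 0.932).

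Levels of different genes were compared per length, as TPM (counts per kilobase of exon, scaled to the same sum in each library). Scn2b had 203 ± 10.8 TPM in SRC1 KO and 183 ± 7.96 TPM in WT (SD, n = 3 each, as for all TPM values here). Scn2a had 112 ± 9.42 TPM in SRC1 KO and 115 ± 5.86 TPM in WT, lower than Scn2b in each group. Scn3b, at 116 ± 6.64 TPM in SRC1 KO and 114 ± 8.01 TPM in WT, did not differ from Scn2a beyond their spread. Cacna2d2 had 105 ± 7.34 TPM in SRC1 KO and 101 ± 3.61 TPM in WT. Hcn2 had 129 ± 17.0 TPM in SRC1 KO and 92.0 ± 8.07 TPM in WT, above Cacna2d2 in SRC1 KO only. Nalcn had 87.9 ± 5.80 TPM in SRC1 KO and 91.4 ± 1.98 TPM in WT, and in WT it did not differ from Hcn2 beyond their spread.

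**Figure D4:**
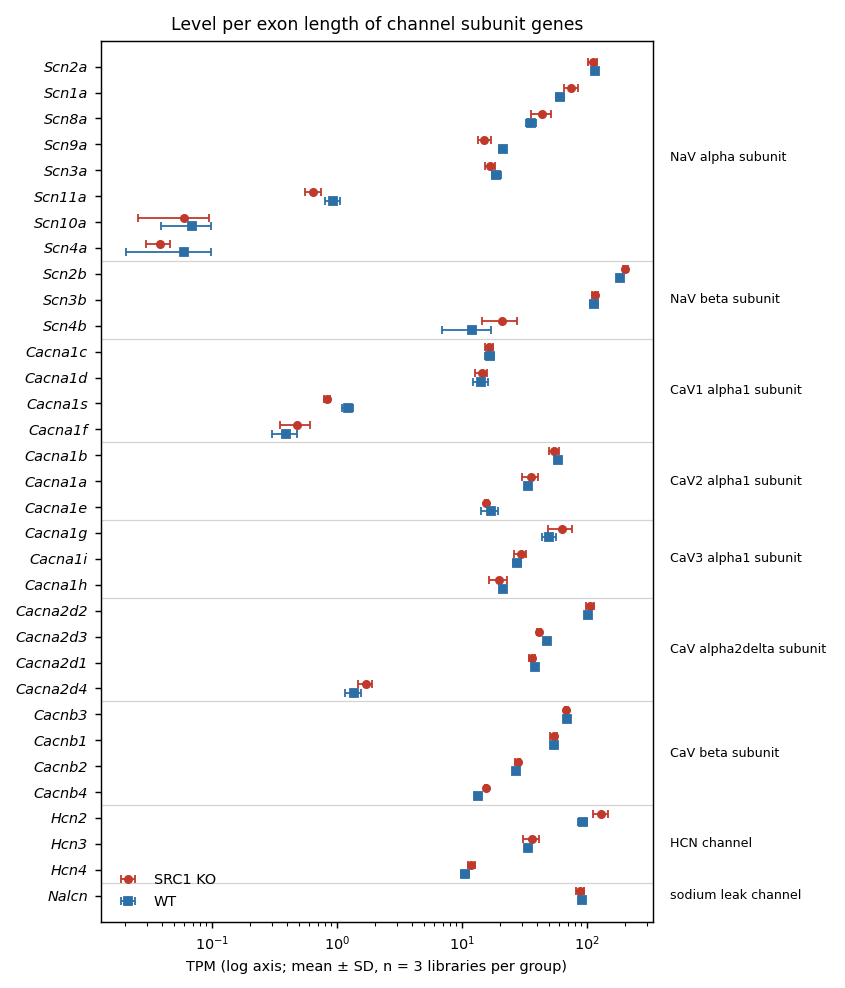
TPM (log axis) of 33 channel genes by role, as mean ± SD of 3 libraries, SRC1 KO as red circles and WT as blue squares. Scn2b is near the top at 203 TPM in SRC1 KO and 183 TPM in WT, and Scn4a and Scn10a are at the bottom under 0.1 TPM.

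The sodium channel alpha genes summed to 278 ± 22.0 TPM in SRC1 KO and 268 ± 4.70 TPM in WT. The HCN genes summed to 214.5, 193 and 173 TPM in SRC1 KO and 149, 163 and 147 TPM in WT, with no overlap. Hcn2 alone held 56.9% to 68.7% of this sum in the libraries, so the sum is not separate from the Hcn2 call. The alpha2delta genes summed to 184 ± 5.95 TPM in SRC1 KO and 188 ± 4.31 TPM in WT. The calcium channel beta genes summed to 166 ± 6.89 TPM in SRC1 KO and 165 ± 1.78 TPM in WT. The groups overlapped for both auxiliary families, as they did for the pores of calcium channels. The L-type pores summed to 32.2 ± 2.75 TPM in SRC1 KO and 32.4 ± 3.02 TPM in WT. The CaV2 pores summed to 105 ± 10.4 TPM in SRC1 KO and 108 ± 6.88 TPM in WT. The T-type pores summed to 112 ± 19.9 TPM in SRC1 KO and 98.5 ± 7.58 TPM in WT. Sums depend on the exon length used. The table's length, the union of all exons of a gene, was 3.57 times that of the canonical GENCODE transcript for Cacna1e. It was 2.90 times for Cacna2d1, 2.49 times for Cacna1d, 2.38 times for Cacna1c and 2.09 times for Scn3a. TPM of these genes are accordingly low when set against other genes, and with them the sum of the L-type pores and part of the alpha2delta and CaV2 sums. For the calcium channel beta genes the ratio was 1.55 to 1.88.

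Within the families, Hcn2 took 68.7%, 65.6% and 65.8% of the HCN sum in SRC1 KO and 56.9%, 62.0% and 61.6% in WT. Its share was higher in each SRC1 KO library than in any WT library. Hcn3 held 18.6% ± 1.70 in SRC1 KO and 22.0% ± 1.38 in WT (SD, n = 3 each). Scn2a held 40.1% ± 1.69 of the sodium channel alpha sum in SRC1 KO and 42.8% ± 1.64 in WT (SD, n = 3 each, as for the shares that follow). Scn1a held 26.9% ± 1.30 in SRC1 KO and 22.6% ± 2.02 in WT. Scn9a held 5.47% ± 0.988 in SRC1 KO and 7.88% ± 0.416 in WT. The shares of Scn1a and Scn9a differed by more than their SDs and in opposite directions. Cacna1g held 55.7% ± 2.83 of the T-type sum in SRC1 KO and 50.3% ± 2.92 in WT, and Cacna1h held 17.7% ± 0.504 in SRC1 KO and 21.7% ± 1.52 in WT. These shares were not tested.

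**Figure D5:**
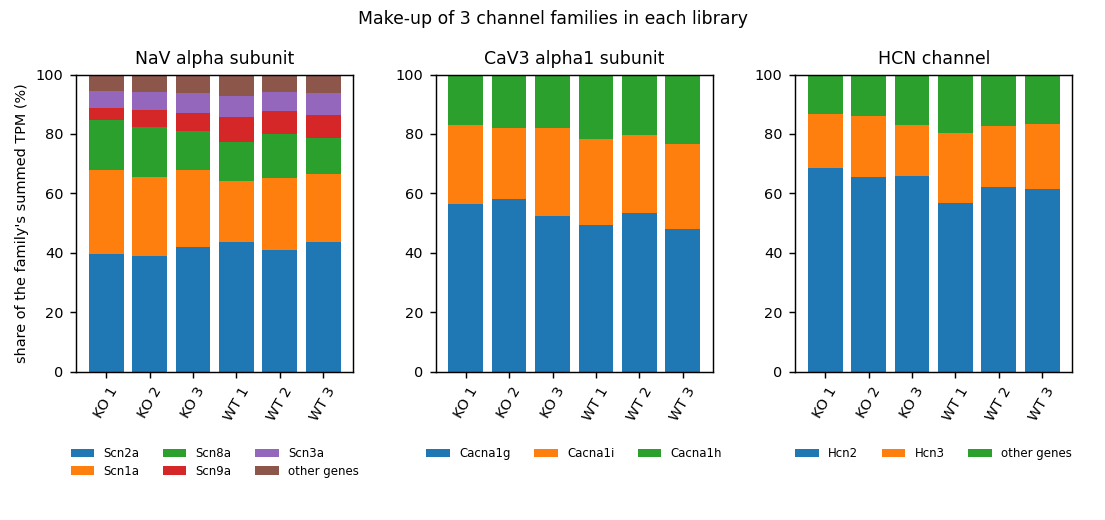
Share of each family's summed TPM (vertical axis, percent) held by each gene, with the lower ones pooled as other genes in 2 of the families, in the 6 libraries, SRC1 KO 1 to 3 left of WT 1 to 3, for the sodium channel alpha, T-type calcium channel and HCN families. Hcn2 fills 65.6% to 68.7% of the HCN bar in SRC1 KO and 56.9% to 62.0% in WT, and the Scn9a segment is thinner in SRC1 KO.

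The proteins that bind these channels were read from a list of 44 genes, of which 40 were tested. In the edgeR fit 0 rose and 2 fell, Rrad and Gem, where 0.592% of all genes passed as lower. The median log2 fold change of the list was 0.04, against 0.0042 over all genes tested, and 11 of the 40 had an unadjusted p under 0.05, where 13.0% of all genes did. Of these, 9 were higher, where 5.75% of all genes were. Rrad and Gem encode small GTPases of the RGK family, which bind calcium channel beta subunits and inhibit high-voltage-activated calcium channels. The other RGK genes of the list, Rem1 and Rem2, overlapped between groups and did not pass. Rem1 had a log2 fold change of -0.47 ± 0.34 (SE, adjusted p = 0.654) and Rem2 one of -0.04 ± 0.18 (SE, adjusted p = 0.96). Rrad had 186, 214 and 246 counts in SRC1 KO and 343, 347 and 351 counts in WT. The groups were well apart, at 5.07 ± 0.554 CPM in SRC1 KO and 8.67 ± 0.425 CPM in WT (SD, n = 3 each), and its log2 fold change was -0.77 ± 0.13 (SE, edgeR adjusted p = 0.0286). Gem had 48, 46 and 95 counts in SRC1 KO and 137, 145 and 173 counts in WT. Its groups did not overlap either, at 1.46 ± 0.537 CPM in SRC1 KO and 3.78 ± 0.404 CPM in WT (SD, n = 3 each), and its log2 fold change was -1.36 ± 0.24 (SE, edgeR adjusted p = 0.0389).

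Without the library numbered 1 in each group, Rrad was at -0.71 and Gem at -1.30 on the log2 scale, both with an adjusted p of 0.277. With single libraries left out, Rrad lost its call without SRC1 KO 1 (adjusted p = 0.122), WT 1 (0.0708) or WT 2 (0.0606). Gem kept its call only without SRC1 KO 3 (adjusted p = 0.0154), and its adjusted p was 0.06 to 0.165 with any other library left out. With every library kept, library totals alone gave an adjusted p of 0.0514 for Rrad and 0.0638 for Gem, and the stricter filter on low counts gave 0.053 for Gem, so these calls were lost. Of the list's other genes, Cabp1, which encodes a neuronal relative of calmodulin that modulates calcium channels, had 24.0, 24.5 and 21.1 CPM in SRC1 KO and 13.1, 18.2 and 17.7 CPM in WT. Cabp1 did not overlap between groups and did not pass in edgeR, with a log2 fold change of 0.50 ± 0.12 (SE, adjusted p = 0.104). Cacng7, a transmembrane relative of the calcium channel gamma subunit that regulates AMPA receptors, had 169, 155 and 143 CPM in SRC1 KO and 110, 134 and 128 CPM in WT. Its groups were apart too, with a log2 fold change of 0.33 ± 0.09 (SE, adjusted p = 0.128). Pex5l, which encodes the HCN auxiliary subunit TRIP8b, averaged 169 ± 28.3 CPM in SRC1 KO and 126 ± 13.0 CPM in WT (SD, n = 3 each), at a log2 fold change of 0.42 ± 0.12 (SE, adjusted p = 0.183). By library it had 200, 162 and 145 CPM in SRC1 KO and 111, 135 and 132 CPM in WT. Of the 40 tested binding proteins, Pex5l, Cacng7, Fgf11 and Nfasc had the libraries in the order of the oligodendrocyte sum. That order was held by 0.835% of the tested genes outside the oligodendrocyte list, and it was noticed after the values were seen. Nfasc had 471, 433 and 378 CPM in SRC1 KO and 367, 372 and 369 CPM in WT, and it did not pass (edgeR adjusted p = 0.325). The listed partners of the Nalcn pore overlapped between groups. Unc79 had a log2 fold change of -0.02 ± 0.07 (SE, adjusted p = 0.939), Unc80 one of 0.04 ± 0.07 (SE, adjusted p = 0.888) and Fam155a one of -0.02 ± 0.10 (SE, adjusted p = 0.966).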

How the data were processed

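RNeasy extraction and Illumina TruSeq preparation are named in the labels' protocols. Alignment used STAR 2.7.10a, per the submitters' processing notes. The authors deposited raw, unnormalized read-pair counts for each gene. Counting used featureCounts over RefSeq exons of mm39 (GRCm39), per the file headers, which give version 2.0.0 where the processing notes give 2.0.3. The command set no strand or multi-mapping option, so overlapping genes cannot be told apart by strand and reads shared by genes were not counted.

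Library codes in the labels tie the columns to samples. All rows had a gene name and all value columns were used. The counts of all genes were fitted with edgeR 4.0.16 in R 4.3.3 (TMM, default expression filter with a minimum count of 10, robust quasi-likelihood F-test, Benjamini-Hochberg adjustment over 20257 genes). SE was obtained as log2 fold change over the root of the F statistic. The common biological variation coefficient was 12.3%. Chi-square per degree of freedom was 8.01 to 16.9 between libraries of a group, so none matched within sampling noise. TPM used the table's exon lengths. Promoter windows came from RefSeq (GRCm38.p6). Exact permutation tests of single values were not made, since 3 libraries against 3 allow no p below 0.1. The fit was tested on counts simulated for the 20257 genes of this comparison, of which 19825 passed the filter again. It called 42 of 100 genes changed by 0.5 and 82 of 100 changed by 1 on the log2 scale. Beside these true calls there were 16 false calls among the unchanged genes.

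Alternatives were DESeq2 1.42.0, limma-voom 3.58.1 with and without sample quality weights, other scalings and filters, a replicate block and each library left out. Leaving out both libraries numbered 1, and lengths of the GENCODE canonical transcript, were added after seeing the data. The channel genes and all lists were chosen with earlier results of these data known. Some channel and marker genes are withheld and not reported here, although they stay in the counts, medians and sums. Each other channel gene is given with its level. Values per library are given for those past either threshold, the highest of each family per length, the HCN genes and Nalcn, and, of the binding proteins, the 4 with the lowest p, called ones included.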

Additional observations from a re-analysis of the deposited data

How the results depend on the processing

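Calls over all genes numbered 169, and for the channel genes 1 and the binding proteins 2. With library totals alone they were 66, 0 and 0. Without a filter they were 966, 5 and 6, and with at least 1 CPM in at least 3 libraries 84, 0 and 1. DESeq2 gave 821, 4 and 6, limma-voom 103, 0 and 2, and limma-voom with sample quality weights 401, 2 and 3. Without both libraries numbered 1 they were 29, 0 and 0. Leaving out single libraries gave 36 to 260, 0 to 3 and 0 to 2. Those of DESeq2 included Hcn2, Scn1a and Scn9a. Of the binding proteins DESeq2 called Cabp1, Cacng7, Fgf11, Gem, Pex5l and Rrad, of which only Gem and Rrad passed in the main edgeR fit. Hcn2 kept a positive log2 fold change throughout, 0.35 to 0.58, with an adjusted p of 4.17e-07 to 0.369, and Ncoa1 kept its call in every alternative run. The sodium channel alpha share of the summed channel TPM was 16.4%, and it was 23.6% in CPM without length, 15.8% with the canonical transcript length and 16.3% to 16.7% with single libraries left out.

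Deviations from the group mean correlated at -0.21, 0.35 and 0.22 between same-numbered libraries. Between differently numbered libraries the correlations ran from -0.41 to 0.26. These ranges overlap, so a pairing by number was neither shown nor excluded. With a replicate block 155 genes, 0 channel genes and 2 binding proteins were called, Hcn2 at 0.51 (adjusted p = 0.105) and Ncoa1 at -1.71.

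No call changed direction. Uncalled values near 0 did. With library totals Cacna1c was at -0.011, Cacnb1 at -0.019 and Cacnb3 at -0.027. Without both libraries numbered 1, Cacna1e was at 0.0060, Cacnb1 at -0.031, Cacnb3 at -0.011 and Scn3b at -0.023. With single libraries left out the ranges were -0.018 to 0.082 for Cacna1c, -0.047 to 0.095 for Cacna1d, -0.17 to 0.023 for Cacna1e, -0.17 to 0.017 for Cacna1h, -0.026 to 0.046 for Cacnb1, -0.027 to 0.030 for Cacnb3, -0.082 to 0.042 for Nalcn, -0.072 to 0.068 for Scn2a and -0.0047 to 0.14 for Scn3b. The cause of these differences was not tested. Depth limits Scn4a, Scn10a, Scn11a, Cacna1f and Cacna1s, all at under 3 CPM.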

Other observations

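Scn7a, a sodium channel relative that senses sodium rather than voltage and lies near Scn9a on chromosome 2, is outside the group of genes described. It had 744, 490 and 617 counts in SRC1 KO and 1226, 1095 and 1674 counts in WT. The groups did not overlap, at 14.5 ± 2.83 CPM in SRC1 KO and 33.1 ± 6.26 CPM in WT (SD, n = 3 each), and the log2 fold change was -1.19 ± 0.18 (SE, edgeR adjusted p = 0.0398). Without the library numbered 1 in each group it was -1.42 (adjusted p = 0.0326). The call was lost with a replicate block (adjusted p = 0.0687), and with SRC1 KO 2 (0.0539), SRC1 KO 3 (0.108), WT 1 (0.0961) or WT 2 (0.0553) left out.

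Further genes of the list of binding proteins, named after their values were seen, had higher values in every SRC1 KO library. They did not pass in the main edgeR fit. Fgf11 was called with DESeq2 and with limma-voom and sample quality weights, and Cacng2 with neither. Fgf11, which encodes an intracellular relative of fibroblast growth factors that binds sodium channels, had 40.9, 38.8 and 28.3 CPM in SRC1 KO and 17.5, 27.2 and 19.3 CPM in WT. Its log2 fold change was 0.76 ± 0.21 (SE, adjusted p = 0.21). Cacng2, which encodes the AMPA receptor partner stargazin, averaged 79.0 ± 0.673 CPM in SRC1 KO and 68.0 ± 2.95 CPM in WT (SD, n = 3 each), at a log2 fold change of 0.22 ± 0.06 (SE, adjusted p = 0.151).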
